A study of Mus musculus with 69 samples.

Results

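Single progenitor cells of the embryonic mouse forebrain were compared by their place in the division cycle. The members are 18 cells: the 9 with the highest and the 9 with the lowest value of a score that sets S phase genes against G2/M genes. They were taken from 28 cells that had Sox2, a transcription factor gene of neural progenitors, above an intensity of 50 and Eomes, a transcription factor gene of intermediate progenitors, at or below 50. Those 28 were among 66 cells of the ventricular and subventricular zones, of 69 cells in the series. The score is the mean log2 intensity of Mcm2, Mcm3, Mcm5, Mcm6 and Rrm2 minus the mean of Cenpa, Cdc20, Ccnb2, Ube2c and Cks2, with values under 6 on the log2 scale (64 on the linear scale) set to 6. Groups are called the high-score cells (S phase side), the middle cells (10 cells) and the low-score cells (G2/M side).

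All cells came from the dorsal forebrain of CD1 mouse embryos at embryonic day 14, for which the labels give no treatment. They were dissociated with trypsin, picked by hand at random, amplified one by one and hybridised to a whole-genome Affymetrix array. The labels name no animal, so each group counts as 1 sample, cells are not replicates of it, and no difference below carries a test. Each is a description of these 18 cells.

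In S phase the genome is copied once by a helicase of Mcm proteins, a sliding clamp, primase, polymerases and ligases, and many of their genes are switched on by E2F factors at the end of G1. In G2 and mitosis another set is on, including cyclin B, the polo and aurora kinases, spindle motors and the anaphase-promoting complex. Many genes of that set carry a short promoter element called CHR, through which the DREAM and MuvB complexes act. Apical progenitors of the cerebral wall copy DNA with the nucleus away from the ventricle and divide at its surface, a movement called interkinetic nuclear migration.

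The promoters of 6 genes are shown because they carry the words counted over the gene lists further on. They are RefSeq sequences of GRCm38.p6, written 5′ to 3′ on the strand of the gene, and end at or before the base next to the listed start. Mcm6 (helicase) and Tfdp1 (partner of E2F factors) have an E2F word in capitals. In Mcm6 the first capitals are a pair of overlapping words, one on either strand. Cdc20 and Ube2c (anaphase-promoting complex), Prc1 (midzone microtubules) and Espl1 (separase, which cuts cohesin) have the CHR word in capitals. Prc1 is shown from the second of its listed starts, and Tfdp1 from the first.
Mcm6, chr1:128359736-128359825, minus strand: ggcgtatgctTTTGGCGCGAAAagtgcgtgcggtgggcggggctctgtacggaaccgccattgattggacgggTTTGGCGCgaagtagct
Tfdp1, chr8:13338651-13338720, plus strand: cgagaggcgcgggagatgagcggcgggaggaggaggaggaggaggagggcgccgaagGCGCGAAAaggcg
Cdc20, chr4:118437344-118437403, minus strand: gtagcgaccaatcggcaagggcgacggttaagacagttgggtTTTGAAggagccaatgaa
Ube2c, chr2:164769869-164769928, plus strand: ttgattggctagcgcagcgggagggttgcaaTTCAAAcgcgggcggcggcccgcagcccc
Prc1, chr7:80294406-80294475, plus strand: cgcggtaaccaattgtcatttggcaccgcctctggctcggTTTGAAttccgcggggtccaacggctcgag
Espl1, chr15:102296243-102296292, plus strand: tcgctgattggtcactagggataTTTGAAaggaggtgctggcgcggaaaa

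All 5 S phase genes of the score were above the floor in each high-score cell, and 3 or 4 of the 5 in each low-score cell. The G2/M genes of the score were lower in the high-score cells but still present in most of them. These 10 genes chose the cells, so their values describe the choice. The score ran from −1.55 to 4.05 in the high-score cells, with a median of −0.02, and from −4.34 to −3.33 in the low-score cells, with a median of −3.51. The last high-score cell (−1.55) lay next to the first middle cell (−1.60), and the last middle cell (−3.21) next to the first low-score cell (−3.33), so neither border is a gap. The mean of the 5 S phase genes was 9.87 to 11.5 in the high-score cells and 7.98 to 8.94 in the low-score cells, without overlap. The mean of the 5 G2/M genes was 7.44 to 12.2 in the high-score cells and 11.8 to 12.6 in the low-score cells, with overlap.

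Cells X-9G and X-21F had low G2/M score genes, with means of 7.44 and 7.79. Cells X-11M and X-23B, also high-score, had means of 11.8 and 12.2, inside the range of the low-score cells. The middle cells had 11.9 to 12.5, like the low-score cells. The S phase score genes were thus high in all 9 high-score cells, but these genes chose the cells. Over 64 S phase genes outside the score, X-11M and X-23B had means of 7.86 and 8.04. Both lay inside the 7.33 to 8.17 of the low-score cells, and the other high-score cells had 8.75 or more. The G2/M score genes were below every low-score cell in 7 high-score cells and inside the low-score range in 2. The label of an S phase group therefore holds only in part, and the groups are named by the score.

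Among the genes of the score, Mcm6 differed most: it was 10.3, 11.3 and 12.2 (lowest, median and highest) in the high-score cells and above the floor in 2 of the 9 low-score cells. Cenpa, the centromeric histone H3, was above the floor in 6 high-score cells with a median of 9.16, against 9 low-score cells with a median of 11.9. Cks2, a subunit of cyclin-dependent kinases, was above the floor in all 18 cells and differed by −0.78. Rrm2, of ribonucleotide reductase, was above the floor in 9 high-score and 8 low-score cells.

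**Figure D1:**
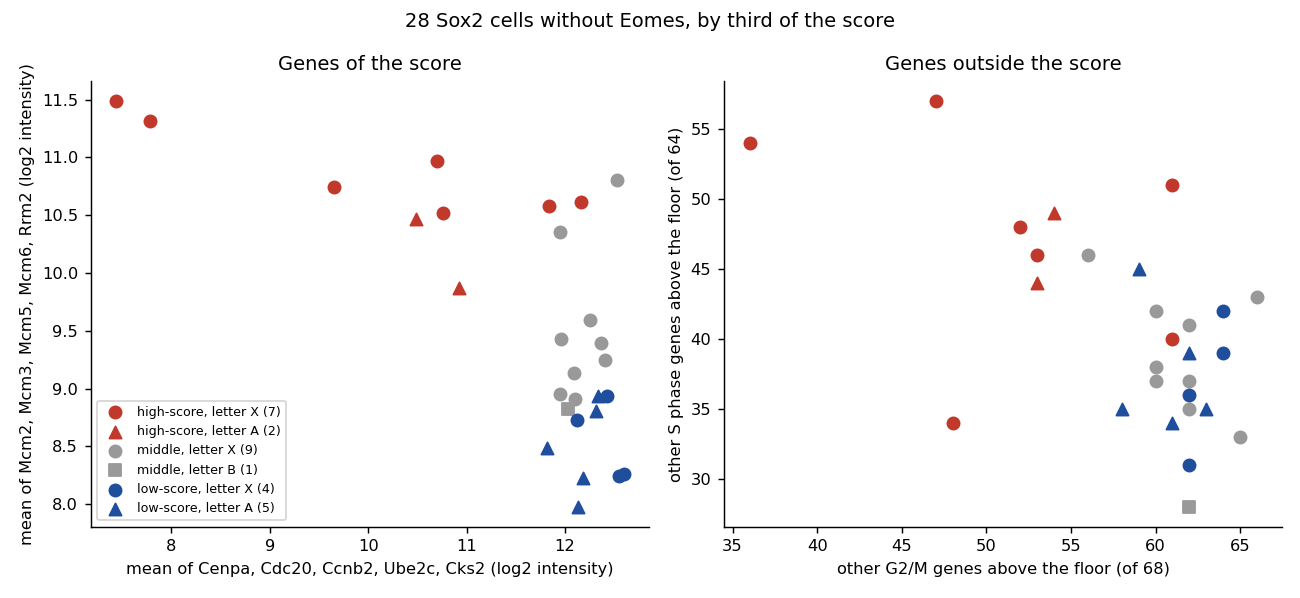
Each point is 1 of the 28 Sox2 cells without Eomes, coloured by score group and shaped by the letter in its title. The left panel plots the mean log2 intensity of the 5 S phase genes of the score against that of the 5 G2/M genes; the right panel plots, per cell, how many of 64 other S phase genes and of 68 other G2/M genes were above the floor. On the left 2 high-score cells lie below 8 on the G2/M axis, and on the right the high-score cells have 34 to 57 of the S phase genes and the low-score cells 31 to 45.

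The cells of both groups overlapped in yield. Between 4303 and 4930 genes per cell were above the floor in the high-score cells (median 4532), and between 4314 and 5588 in the low-score cells (median 4771). Over the 28 cells this number had a Pearson correlation of −0.37 with the score. The lys spike, added at 1000 copies per cell, averaged 12.5 in both groups on the log2 scale. The thr spike, added at 5 copies, averaged 3.80 in the high-score and 6.62 in the low-score cells, with SDs over cells of 3.65 and 3.22. The letters of the titles were not balanced: 7 high-score cells had the letter X and 2 the letter A, against 4 low-score cells with X and 5 with A. The sources used here do not say what the letters stand for. Their part in the results was not tested. Of the 82 genes named here that passed the filter and differed by at least 1 log2 unit, 15 did not reach that size in the same direction within letter X, 20 within letter A and 34 within at least 1 of the letters. Values within a letter are given below for some of them. A gene at the floor may be absent from the cell or lost in amplification, which cannot be told apart here.

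Of 7403 genes that were above the floor in at least 20% of the 28 cells and outside the score, 565 (7.63%) had a mean higher by at least 1 log2 unit (2-fold) in the high-score cells and 506 (6.84%) a mean lower by that much. These shares of filtered genes are the background for the counts of the gene lists. List counts are given out of measured members, not all of which passed the filter. With every cell scaled to the same trimmed mean the counts were 426 higher and 579 lower, so the balance of the 2 directions turned with the scaling. No gene separated the groups without overlap (0 of 7403). The median difference over the 7403 genes was 0.04.

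Replication genes outside the score were higher in the high-score cells as a group. Of 64 measured genes of the S phase list, 59 passed the filter on low values, 29 were higher by 1 log2 unit or more and 1 was lower, with a median difference over the 64 of 0.96. The list was drawn from textbook knowledge with earlier results of these data known. Per cell, 34 to 57 of the 64 genes were above the floor in the high-score cells (median 48) and 31 to 45 in the low-score cells (median 36). Within title letter X the median difference was 0.87, and within letter A it was 0.95.

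Of the 7403 genes, Lig1 had the highest difference. It encodes the DNA ligase that joins Okazaki fragments. It was 6, 10.1 and 11.9 in the high-score cells (lowest, median and highest) and 6, 6 and 9.70 in the low-score cells, a difference of means of 3.06. It was above the floor in 8 of 9 high-score and 3 of 9 low-score cells. Fen1, the flap nuclease that acts with it, was above the floor in all 9 high-score cells (9.09, 10.7 and 11.55) and in 7 low-score cells (6, 8.98 and 10.04), and differed by 2.35. Prim1, the catalytic primase subunit, had 7.25, 10.7 and 11.5 in the high-score cells, against 6, 7.53 and 11.2 in the low-score cells, and differed by 2.63. For all 3 genes most high-score cells were high and most low-score cells low, and the ranges overlapped.

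Mcm4, a helicase subunit that the score does not hold, was 9.74, 11.2 and 11.8 in the high-score cells and 6, 8.92 and 10.6 in the low-score cells. The difference was 2.87, and 8 of the 9 high-score cells were above the highest low-score cell. Cdt1, which loads the helicase, differed by 2.64 and was above the floor in 7 high-score and 2 low-score cells. Rpa1, of the protein that coats single-stranded DNA, differed by 2.63, with 8 against 4 cells above the floor. Pcna, the sliding clamp, was above the floor in all 18 cells, at 10.3, 12.8 and 12.97 in the high-score cells and 7.31, 10.7 and 12.4 in the low-score cells.

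Among the 15 highest genes were also Slbp, Atad2 and Tcf19. Slbp, which binds the end of histone mRNA, was 9.32, 10.9 and 11.9 in the high-score cells and 6, 8.97 and 10.5 in the low-score cells, and differed by 2.67. Atad2, a chromatin ATPase, was above the floor in 8 high-score cells and 3 low-score cells, and differed by 2.73. Tcf19, a gene of G1 and S phase cells, was above the floor in 7 high-score cells, at 9.96 or higher in each, and in 3 low-score cells, at 8.85 or lower. Its difference was 3.03. The high-score cells without it were X-11M and X-23B, the same that held high G2/M score genes.

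Not every S phase marker did the same. Gins1, of the helicase complex, differed by −0.33, with 7 high-score and 9 low-score cells above the floor. Uhrf1, which recruits the maintenance DNA methyltransferase, differed by 0.13 and was above the floor in 2 and 3 cells. Cdc6, which loads the helicase in G1, and Ccne2, a G1/S cyclin, were each above the floor in 3 high-score cells and in 0 low-score cells, too few to pass the filter.

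**Figure D2:**
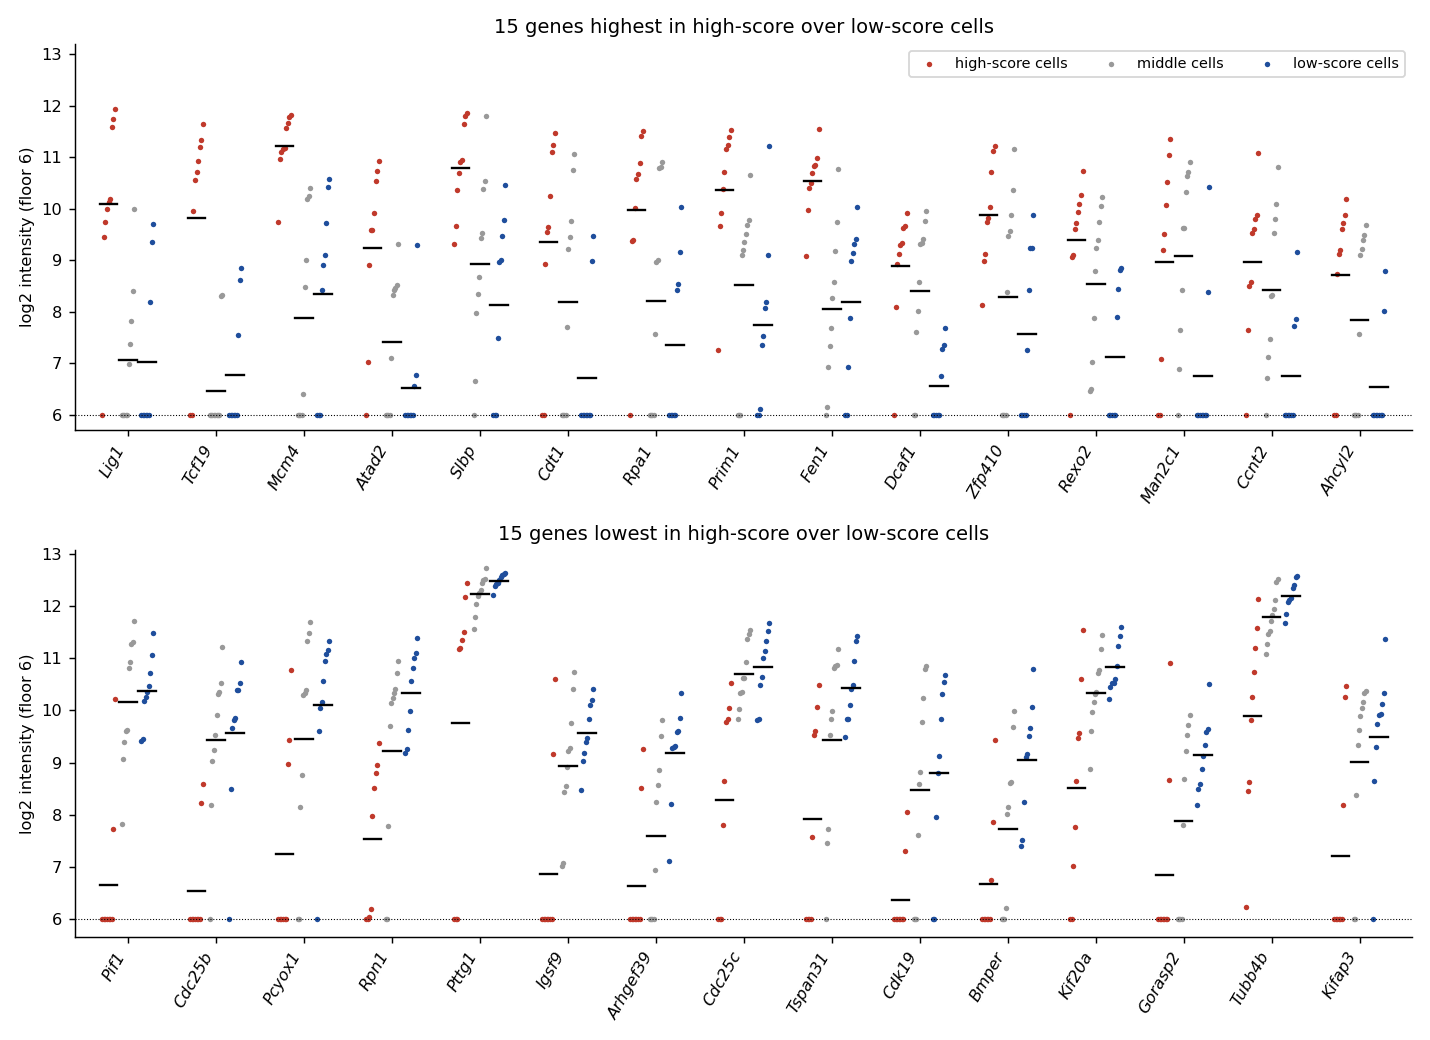
Log2 intensity per cell (floor 6, dotted) of the 15 genes with the highest (top) and the lowest (bottom) difference among genes above the floor in at least 75% of the cells of the higher group. Within a gene the high-score, middle and low-score cells stand from left to right, and bars are means. Points of the 2 outer groups overlap for every gene shown; Pif1 is at the floor in 7 of 9 high-score cells and between 9.42 and 11.5 in the low-score cells.

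The remaining genes among the 15 highest were not replication genes of the list. Dcaf1, a substrate receptor of a ubiquitin ligase, differed by 2.32 and Zfp410, a zinc finger factor, by 2.32. Rexo2, an oligoribonuclease, differed by 2.28, Man2c1, a mannosidase, by 2.22, Ccnt2, a cyclin of the elongation kinase, by 2.21 and Ahcyl2 by 2.18. Ccnt2 depended on the probe set: 1 of its 5 probe sets differed by −0.54. In the cells with Eomes, Rexo2 and Man2c1 ran the other way, at −1.03 and −1.17.

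Genes of repair and of E2F control followed in part. Of 30 measured DNA repair and checkpoint genes, 7 were higher and 0 lower, with a median of 0.18 (0 within letter X, 0.84 within letter A). Msh6, of mismatch repair, differed by 1.95, with a mean of 8.83 in the high-score and 6.88 in the low-score cells. Brca1, of homologous recombination, differed by 1.77, Eme1, a nuclease subunit, by 1.49, and Exo1, an exonuclease, by 1.46. Topbp1, which activates the checkpoint kinase ATR, was above the floor in all 18 cells and differed by 1.08.

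Of 19 E2F, retinoblastoma and MuvB genes 4 were higher and 0 lower, with a median of 0.79 (0.29 within letter X, 0.97 within letter A). Tfdp2 differed by 1.62 and Tfdp1 by 1.39, both partners of E2F factors. Lin54, the CHR-binding subunit of MuvB, differed by 1.47 and E2f3 by 1.10. Tfdp1 was 9.88, 10.9 and 11.9 in the high-score cells and 6.26, 9.70 and 11.4 in the low-score cells, but within letter X it differed by 0.21.

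Among G1 cyclins, kinases and inhibitors 3 of 18 were higher and 0 lower, with a median of 0.04. These were Ccng1 (1.23), a p53 target, Cdk2 (1.12), the kinase of S phase, and Skp2 (1.04), which marks p27 for destruction. One of the 6 probe sets of Skp2 differed by −0.57. Ccnd1 differed by 0.77, Ccnd2 by 0.26 and Cdkn1b, the gene of p27, by 0.07, and Cdkn1c was above the floor in 0 of 18 cells.

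G2 and mitosis genes outside the score were lower in the high-score cells. Of 68 measured genes, all of which passed the filter, 32 were lower by 1 log2 unit or more and 3 were higher, with a median of −0.93. The median was −1.12 within letter X and −0.36 within letter A, where only 2 high-score cells stand against 5. Per cell, 36 to 61 of the 68 genes were above the floor in the high-score cells (median 53) and 58 to 64 in the low-score cells (median 62). Without the 2 cells with the lowest G2/M score genes, the median was −0.53.

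Cdc25b and Cdc25c, phosphatases that switch on the mitotic kinase, were among the lowest. Cdc25b was at the floor in 7 of 9 high-score cells and reached 8.60 in the others, against 6, 9.85 and 10.9 in the low-score cells, a difference of −3.02. Cdc25c was 6, 8.65 and 10.5 in the high-score cells and 9.83, 11.01 and 11.7 in the low-score cells, a difference of −2.54. Pttg1, securin, which holds separase back, was at the floor in 3 high-score cells and between 11.2 and 12.4 in the other 6, against 12.2 to 12.6 in the low-score cells. Its difference was −2.73, most of it from the 3 cells at the floor.

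Cenpf, a kinetochore protein gene, differed by −2.17 and Espl1 by −2.09. Plk1, the polo kinase, was 6, 10.4 and 11.8 in the high-score cells and 10.9, 11.3 and 12.2 in the low-score cells, and differed by −1.98. Aurka, an aurora kinase, differed by −1.91, Tpx2, which activates it, by −1.75 and Cenpe, a kinetochore motor, by −1.52. Aspm, a spindle pole gene whose loss causes microcephaly, differed by −1.68. Among the high-score cells, Aspm, Plk1 and Cenpe were at the floor only in X-9G and X-21F. In the other high-score cells Aspm was 9.81 to 11.1, against 10.2 to 11.7 in the low-score cells.

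Some genes of dividing cells differed little. Ccna2, cyclin A, was above the floor in all 18 cells and differed by 0.01. Cdk1 differed by −0.38, Mki67 by −0.21, Top2a by −0.64 and Kif11, a spindle motor, by −0.28. Ccna2 had medians of 11.24 in the high-score and 11.17 in the low-score cells.

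Of 24 measured kinesin and cytokinesis genes, 12 were lower and 0 higher, with a median of −0.99 (−1.40 within letter X, −0.32 within letter A). Kif20a, a midzone kinesin, was above the floor in 7 high-score cells with a median of 8.65, against 9 low-score cells with a median of 10.6. Prc1 differed by −2.03, Cep55, of abscission, by −1.92 and Arhgap11a by −1.73. Arhgef39 was above the floor in 2 high-score and 9 low-score cells and differed by −2.54. Cep55 differed by −3.02 within letter X and by −0.12 within letter A, and Kif20a by −2.80 and −0.75.

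**Figure D3:**
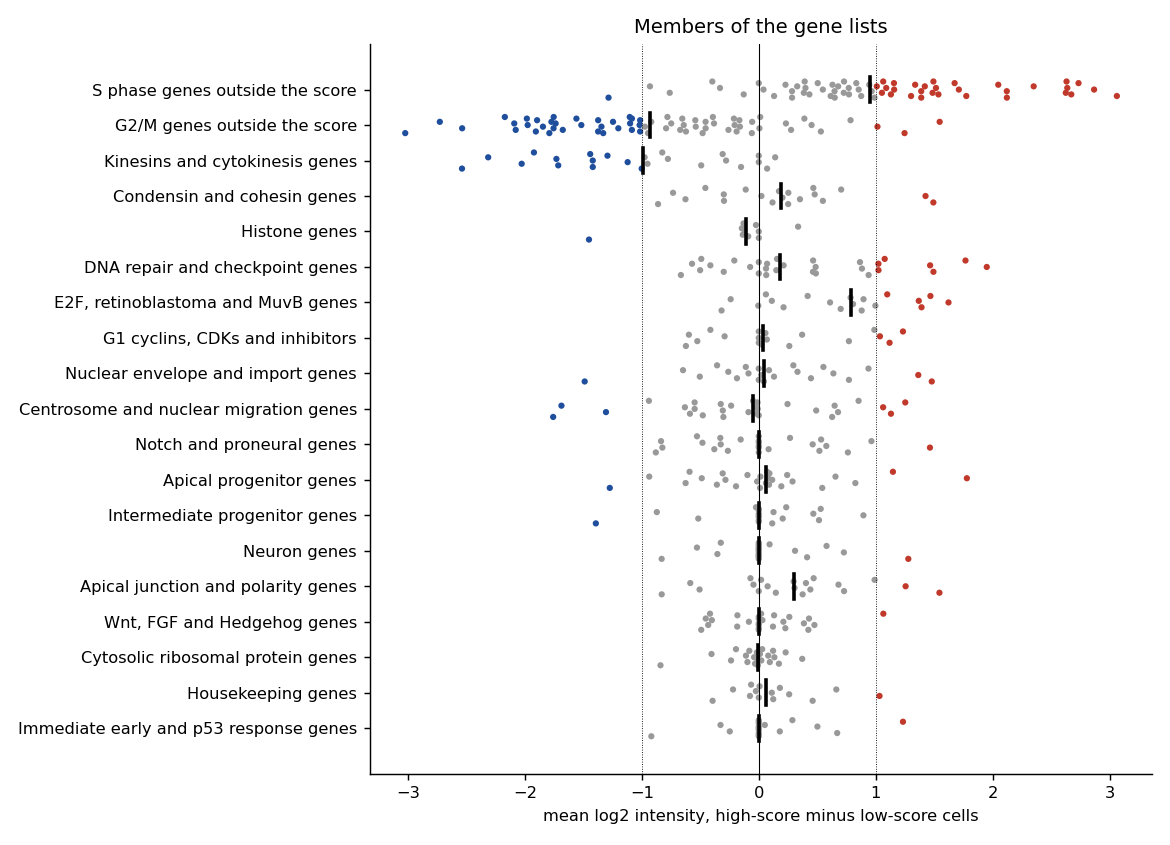
Each point is a measured member of a gene list, placed at its mean log2 intensity in the high-score cells minus that in the low-score cells. Black bars are list medians, dotted lines mark 1 log2 unit, and red and blue points lie beyond it. The S phase list has its median at 0.96, the G2/M list at −0.93 and the kinesin list at −0.99, while the ribosomal protein list stands at −0.01.

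The lowest of the 7403 genes was Pif1, a DNA helicase gene that no list held. It was at the floor in 7 of the 9 high-score cells, at 7.72 in X-11N and at 10.2 in X-23B. In the low-score cells it was 9.42, 10.3 and 11.5, and the difference was −3.71. Igsf9, a cell surface protein gene, was at the floor in 7 high-score cells and at 9.17 and 10.6 in X-11M and X-23B, against 8.48, 9.48 and 10.4 in the low-score cells. Pcyox1, a prenylcysteine oxidase gene, was above the floor in 3 high-score and 8 low-score cells and differed by −2.86. Cell X-23B, whose G2/M score genes were as high as in the low-score cells, held Pif1, Igsf9 and Pcyox1, and X-11M held Igsf9 and Pcyox1. X-9G, with the lowest G2/M score genes, also held Pcyox1, at 8.97.

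The middle cells resembled the low-score cells in several of these genes. Lig1, Mcm4 and Tcf19 had means of 7.06, 7.87 and 6.46 in the middle cells, against 7.03, 8.35 and 6.78 in the low-score cells. Pif1 and Cdc25b had means of 10.2 and 9.43 in the middle cells, against 10.4 and 9.56 in the low-score cells. Over all called genes the mean of the middle cells lay between those of the outer groups for 411 of the 565 higher and 370 of the 506 lower genes.

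Other genes among the 15 lowest have other known roles. Tubb4b, a beta tubulin, was above the floor in all 18 cells, at 6.23, 10.2 and 12.1 in the high-score cells and 11.7, 12.2 and 12.6 in the low-score cells. Rpn1, of the glycosylation complex of the endoplasmic reticulum, differed by −2.79, Tspan31, a tetraspanin, by −2.52 and Cdk19, a kinase of the Mediator complex, by −2.44. Bmper, a modulator of BMP signals, differed by −2.38, Gorasp2, a Golgi stacking protein gene, by −2.31 and Kifap3, of kinesin-2, by −2.27. In the cells with Eomes, Rpn1 differed by −0.13, Cdk19 by −0.73, Cdc25b by −0.64, Kifap3 by 0.47, Bmper by 0.55, Tspan31 by 0.68 and Gorasp2 by 1.05, so none of these 7 was lower by 1 log2 unit there.

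The score was then taken in cells that the choice had not used, namely the 21 cells with Sox2 and with Eomes above 50, of which 7 had the highest and 7 the lowest score. Their S phase list median was 1.20, with 36 of 64 genes higher and 0 lower, and their G2/M list median was −0.90, with 31 of 68 lower and 2 higher. Of the 565 genes higher in the high-score cells without Eomes, 113 (20%) were also higher by at least 1 log2 unit in the cells with Eomes, where 668 of all 7403 (9.02%) were. Of the 506 lower genes 109 (21.5%) were also lower, against 666 of 7403 (9%). In the other direction by at least 1 log2 unit were 34 (6.02%) of the higher genes and 37 (7.31%) of the lower ones. These cells bore mostly other title letters, with 5 B, 1 C and 1 X among the 7 high-score cells and 2 B, 2 C and 3 X among the 7 low-score cells. High-score cell B-16C had all 5 G2/M score genes at the floor and 18 of 68 G2/M list genes above it. The other high-score cells had 50 to 67 of them. B-15P and B-6E had G2/M score means of 11.84 and 11.83, inside the 11.75 to 12.77 of the low-score cells. How much the lower differences rest on B-16C was not tested.

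Outside every gene list, 79 of 504 higher genes (15.7%) and 77 of 454 lower genes (17%) were also beyond 1 log2 unit in the same direction in the cells with Eomes. Over all 7403 genes those shares were 9.02% and 9%. By at least 1 log2 unit the other way were 34 (6.75%) of the higher and 37 (8.15%) of the lower genes. The sign alone was the same for 280 (55.6%) and 245 (54%), so many of these genes did not recur. Pif1 was 7.35 in the high-score and 10.3 in the low-score cells with Eomes, a difference of −2.97. Igsf9 differed by −3.48 there and Pcyox1 by −2.64, and Tcf19 by 2.88. Chosen after their values were seen, Bora, an activator of the aurora and polo kinases, differed by −2.20 without and −2.38 with Eomes, Gas2l3, a cytoskeletal linker, by −2.07 and −1.97, and Vti1b, a vesicle fusion gene, by −2.24 and −2.11. On the other side, also chosen after their values were seen, Hat1, which acetylates new histones, differed by 1.31 and 2.23, Dtl, of the ligase that degrades Cdt1, by 1.25 and 1.62, and Dck, deoxycytidine kinase, by 1.32 and 1.54. Within letter X, Dtl differed by 0.26 and Dck by 0.56.

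**Figure D4:**
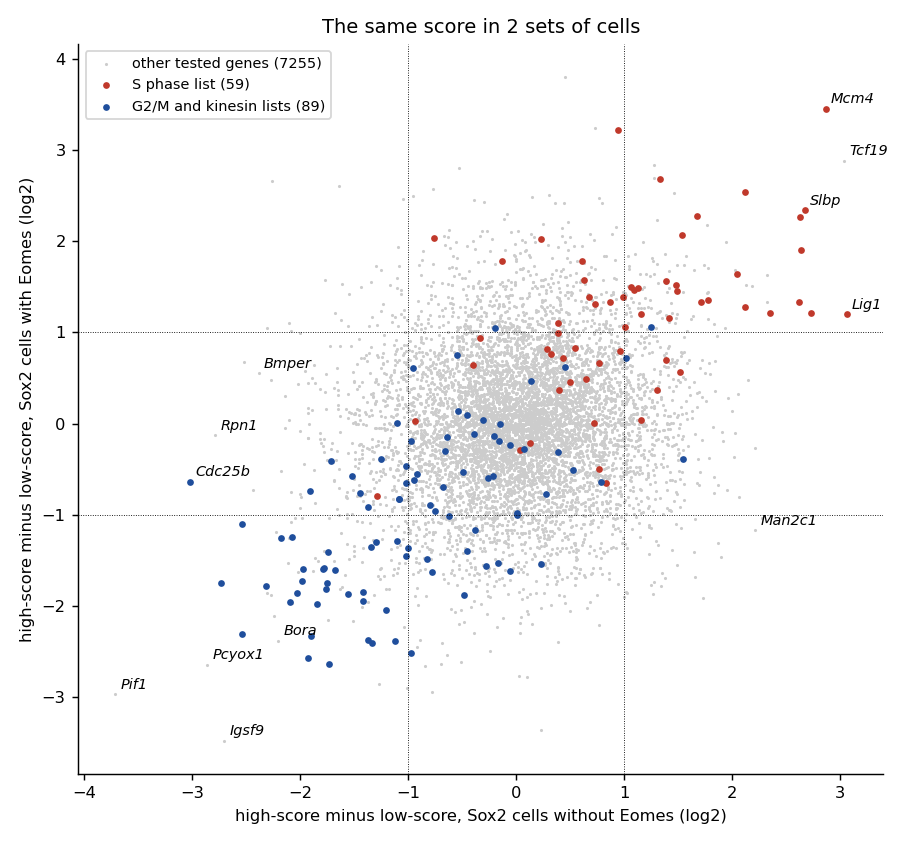
Each point is 1 of 7403 genes, placed by its difference between high-score and low-score cells in the Sox2 cells without Eomes (x axis) and in those with Eomes (y axis), both in log2 units. Red points are S phase list genes and blue points are genes of the G2/M and kinesin lists; dotted lines mark 1 log2 unit. Mcm4 (2.87 and 3.45) and Tcf19 lie in the upper right corner and Pif1 and Igsf9 in the lower left one. On the y axis Rpn1 lies at −0.13 and Bmper at 0.55.

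Promoter words were counted over the gene lists as a whole, whether or not a member differed. They were sought on both strands in the 300 bases from 250 before to 50 after each RefSeq start: TTTGAA for CHR, TTTGGCGC, TTTCCCGC, TTTGCCGC or TTTCGCGC for E2F, and CCAAT. The E2F words can overlap each other on opposite strands. Of the 76 measured G2/M and kinesin list genes with a listed promoter, 50 (65.8%) held CHR, against 9 of 51 S phase list genes (17.6%) and 869 of 6131 genes of the filtered set (14.2%). Of the 51 S phase list genes 18 (35.3%) held an E2F word, against 5 of the 76 (6.58%) and 5.73% of the filtered set. Among list members beyond 1 log2 unit, CHR stood in 24 of 36 lower G2/M and kinesin genes (66.7%) and E2F words in 5 of 22 higher S phase genes (22.7%), the second a smaller share than in the whole S phase list. CCAAT stood in 55 of the 76 G2/M and kinesin list genes (72.4%), in 27 of the 51 S phase list genes (52.9%) and in 44% of the filtered set. Over all 27025 genes with a listed promoter the share was 20.2% for CHR, 2.6% for E2F and 41.1% for CCAAT.

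Among all called genes the shares lay closer together. CHR stood in the promoters of 13.3% of the genes higher and 24.8% of the genes lower in the high-score cells. E2F words stood in 7.86% of the higher and 4.72% of the lower genes. For genes outside every list CHR was found in 12.2% of 409 higher and 20.5% of 381 lower genes. A match describes letters in a window and is not a measured binding site.

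Of 27 measured apical progenitor genes 2 were higher and 1 was lower, with a median of 0.06. The shares of 7.41% and 3.70% are of measured members, of which 26 passed the filter. They stand beside 7.63% and 6.84% of the genes that passed it. Pax6, a transcription factor of cortical progenitors, was 10.6, 11.2 and 11.7 in the high-score cells and 10.03, 11.1 and 11.6 in the low-score cells. Vim, Fabp7 and Nes, of the radial glial cytoskeleton and lipid transport, differed by −0.10, 0.09 and 0.01, and Sox2 by 0.44. Slc1a3, which takes up glutamate in radial glia, was above the floor in 7 high-score and 8 low-score cells, with a difference of −0.59.

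The members beyond 1 log2 unit were Tnc, an extracellular matrix protein gene, Glul, glutamine synthetase, and Zfp36l1, an RNA-binding protein gene. Tnc was above the floor in 7 high-score and 4 low-score cells and differed by 1.78, and by 1.44 in the cells with Eomes. Glul differed by 1.15 in all, by 1.61 within letter X and by −0.23 within letter A. Zfp36l1 was 6, 9.26 and 10.6 in the high-score cells and 8.33, 9.79 and 11.05 in the low-score cells, and differed by −1.27.

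Of 25 Notch and proneural genes 1 was higher and 0 lower, with a median of 0. Notch1, the receptor, differed by 0.27, its targets Hes1 and Hes5 by −0.33 and −0.53, and Dll1, a ligand, by −0.26. Neurog2, a proneural factor, was the higher gene at 1.46, with a median of 8.89 in the high-score and 6 in the low-score cells. It was at the floor in all 5 low-score cells of letter A and above it in all 4 of letter X. Within letter X it differed by 0.22 and within letter A by 0.84.

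Of 19 intermediate progenitor genes 7 passed the filter, with 0 higher and 1 lower, and of 23 neuron genes 6 passed it, with 1 higher and 0 lower. Eomes was at the floor in all 18 cells by the choice of cells. Neurod1, Tbr1 and Stmn2 were above the floor in 0 of the 18 cells. Other members were found on both sides. Insm1 was above the floor in 5 high-score and 6 low-score cells, Pcdh8 in 6 and 5, Igsf8 in 8 and 8 and Map2 in 9 and 8. Dcx, a microtubule gene of migrating neurons, was above it in 3 high-score and 2 low-score cells, and Tubb3, neuronal tubulin, in 2 and 5. Btg2, an antiproliferative gene of neurogenic progenitors, was above the floor in 4 high-score and 8 low-score cells and differed by −1.39, against 0.11 in the cells with Eomes. Fezf2, a factor of forebrain progenitors and deep-layer neurons, differed by 1.28. Of 41 measured markers of interneurons, Cajal-Retzius, endothelial, microglial, erythroid, pericyte or meningeal and oligodendrocyte precursor cells, 38 were at the floor in all 28 cells.

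**Figure D5:**
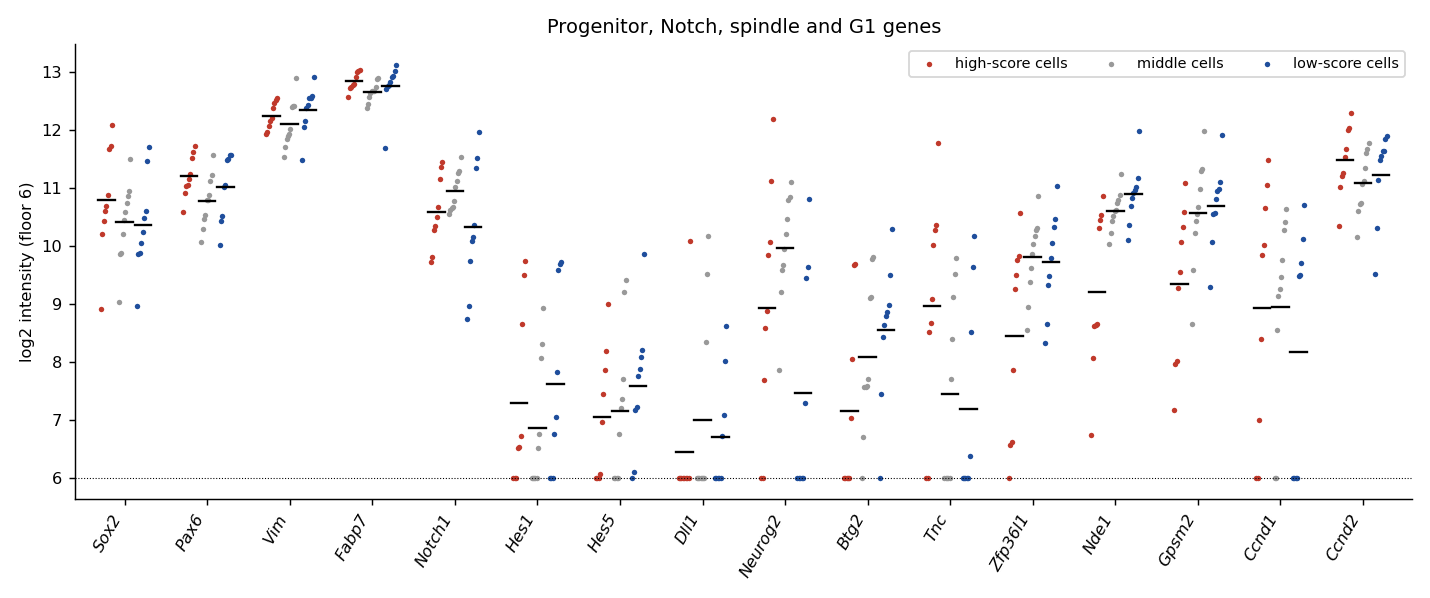
Log2 intensity per cell (floor 6, dotted) of progenitor, Notch, spindle and G1 genes, with the high-score, middle and low-score cells from left to right within each gene and bars at the means. Pax6, Vim and Fabp7 lie at like levels in the 3 groups, Nde1 has a mean of 9.21 in the high-score and 10.9 in the low-score cells, and Neurog2 has a mean of 8.93 in the high-score and 7.47 in the low-score cells.

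Of 29 centrosome and nuclear migration genes, 3 were higher and 3 lower, with a median of −0.05. Each share was 10.3% of the 29 measured members, of which 25 passed the filter. The 7.63% higher and 6.84% lower are shares of filtered genes only, so the bases differ. Resting on 3 members each, the list shares are not read as a difference from that background. Nde1, a dynein regulator whose loss causes microcephaly, was 6.74, 8.66 and 10.9 in the high-score cells and 10.1, 10.9 and 11.99 in the low-score cells, and differed by −1.69. Tacc2, a centrosomal protein gene, differed by −1.76 and Bicd2, a dynein adaptor, by −1.31, though Bicd2 differed by 0.13 within letter A. Gpsm2, which orients the spindle and was chosen after its values were seen, was above the floor in all 18 cells and differed by −1.36 without and −1.09 with Eomes. Within letter X Nde1, Tacc2 and Gpsm2 differed by −1.98, −2.45 and −2.01, and within letter A by −0.46, −0.45 and −0.07. The 3 higher members, named after their values were seen, were Sass6 (1.25) and Cep152 (1.06), of centriole duplication, and Cep120 (1.13), a centriole gene. Within letter X these 3 differed by 0.67, 0.76 and 0.72.

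Of 23 nuclear envelope and import genes 2 (8.70%) were higher, Nup205 (1.48), a nuclear pore gene, and Syne2 (1.36), a nesprin. Lower was 1 (4.35%), Lbr (−1.49), the lamin B receptor. Of 20 condensin and cohesin genes 2 (10%) were higher, Ncapd3 (1.49) and Pds5a (1.43), and 0 lower. Of 10 histone genes measured, 1 was lower: H2ax, whose protein marks DNA breaks when phosphorylated, with 6.21, 10.9 and 12.1 in the high-score cells and 10.2, 12.02 and 12.6 in the low-score cells. H2ax differed by −1.45, and by −0.92 without cell X-21F. Of 20 junction and polarity genes 2 (10%) were higher, Pard6g (1.54) and Dlg5 (1.26), the second at −0.37 within letter A. Of 22 ribosomal protein genes 0 passed 1 log2 unit in either direction, with a median of −0.01. Of 26 Wnt, FGF and Hedgehog genes 1 (3.85%) was higher, Spry2 (1.07), an FGF feedback inhibitor. Among the genes that passed the filter 7.63% were higher and 6.84% lower. The list shares are of measured members instead. The filter was passed by 20 of the 23 nuclear envelope, all 20 cohesin, 16 of the 20 junction and 18 of the 26 Wnt, FGF and Hedgehog genes. Resting on at most 2 members in a direction, these shares are not read as a difference from the background.

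The labels give no sex. Xist, the RNA of the inactive X chromosome, chosen after its values were seen, was above the floor in 6 of 9 high-score and 8 of 9 low-score cells, and differed by −1.26, although 1 of its 3 probe sets differed by 0.85. Without X-20J, X-21F or X-23B the difference was −0.74, and without A-23N it was −1.93. Eif2s3y, a Y-linked gene, was above it in 3 high-score and 1 low-score cells. The part of sex in the other differences was not tested.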

How the data were processed

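The deposited table holds intensities of 45101 probe sets on a linear scale in 69 single cells; per the submitters' processing notes they are MAS5 output. Version, scaling and detection calls are not given in the sources used here. Names came from the array platform's annotation: 34958 had 1 gene, 932 several and 9211 none. Each of the 18194 genes was read from its single-gene probe set with the highest mean log2 over all 69 cells. Values under 6 on the log2 scale, which none of 207 values of the TrpnX control passed, were set to 6; 17.5% of values were above it. Genes above 6 in fewer than 6 of the 28 cells were not counted. Differences are means of log2 values, high-score minus low-score cells. Where many cells of 1 group are at the floor, the difference depends on the floor. A gene was called higher or lower at 1 log2 unit. The number of arrays limits the precision.

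The 18 compared cells, the gene lists and the rules were chosen with earlier results of these data known. Named are the 15 highest and 15 lowest genes (above 6 in at least 75% of the higher group), up to 5 members per list by size of difference, a fixed set of cycle and progenitor genes, and genes said to be chosen after their values were seen. Of 591 list genes 539 were measured; the other 52 were not analysed here. Names followed the RefSeq gene table of GRCm38.p6, through which 14 older names were updated. Alternatives were the floor, the filter, the scaling, the probe sets, the 7 highest against the 7 lowest cells, all Sox2 cells, title letters and leaving out each cell. Correlations of log2 values between pairs of the 28 cells were 0.563 to 0.658, and no pair was identical. A check with shifts added to chosen genes covered the difference of means only, not the choice of cells, the filter or the counts. Python 3.11.15, numpy 2.4.6 and pandas 2.3.3 were used.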

Additional observations from a re-analysis of the deposited data

Results flagged for a closer look

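In 25 of 254 gene and group combinations, 1 of the 9 cells lay far from the other 8, by a gap wider than Dixon's critical value of 0.493 of the range. For normally distributed values chance gives this in about 1 in 20 groups. Values set to the floor are not so distributed, so that rate need not hold here. A group with every cell at the floor could not be flagged.

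Among genes high in the high-score cells, Lig1, Rpa1, Dcaf1, Rexo2 and Dlg5 each had 1 high-score cell at 6, the floor, apart from the other 8. The lowest high-score cell had Mcm4 at 9.74 and Prim1 at 7.25, 1 low-score cell held Atad2 at 9.30 and 1 had Sass6 at 9.32.

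Among genes low in the high-score cells, 1 high-score cell held Pif1 at 10.23 and 1 held Vti1b at 10.21. H2ax was 6.21 in 1 high-score cell and 10.19 in 1 low-score cell. Cdc25b, Pcyox1, Kifap3 and Cenpe each had 1 low-score cell at 6, Cenpf had 1 at 9.34 and Cdc20, a gene of the score, had 1 at 11.64.

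Among progenitor and other genes, 1 high-score cell alone held Dll1 at 10.08 and 1 alone held Hes6, a neurogenic factor gene, at 8.41. One low-score cell had Fabp7 at 11.70, 1 had Slc1a3 at 6, 1 had Xist at 6 and 1 alone held Lmnb1, a nuclear lamin gene, at 8.35.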

How the results depend on the processing

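Counts of genes moved with the floor and the probe set, while the signs of the list medians for S phase, G2/M and kinesin genes held in every setting tried. The counts higher and lower, 565 and 506 as reported, were 1455 and 1799 with the floor at the 95th percentile of the TrpnX control, 845 and 917 at a floor of 5, 256 and 222 at a floor of 7, and 248 and 264 with probe sets averaged. They were 621 and 805 with the 7 cells at either end of the score, 256 and 256 with all Sox2 cells, 448 and 579 after quantile normalization, 426 and 579 after scaling, and 597 and 594 within title letters. Genes higher and lower also in the cells with Eomes, 113 and 109 as reported, were 395 and 503, 185 and 209, 56 and 54, and 55 and 57 under those 3 floors and with probe sets averaged, and 134 and 229 with 7 cells a side. Of the 127 named genes, the difference moved by more than the spread between cells in 23 with the TrpnX floor, 14 with probe sets averaged, 8 with all Sox2 cells, 1 at a floor of 5 and 14 with letter A alone, and in 0 under the other settings that leave out no single cell. The spread is the SD over cells within the groups, which is wide for genes with some cells at the floor. A count of 0 therefore does not show that the differences of single genes were stable. The TrpnX floor moved the S phase median to 1.51 and the kinesin median to −1.73.

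Settings added after seeing the data were 1 letter at a time and 2 sets of cells left out. With letter X alone the counts were 674 and 1036. With letter A alone, 2 cells against 5, they were 1826 and 1116, the G2/M median was −0.36 and the kinesin median −0.32, and Bicd2 (0.13), Glul (−0.23), Dlg5 (−0.37) and Xist (1.37) turned sign; the cause was not tested. Without X-9G and X-21F the S phase median was 0.72 and the G2/M median −0.53. Without X-11M and X-23B they were 1.16 and −0.90. Leaving out each cell gave 528 to 674 higher and 475 to 589 lower genes, S phase medians of 0.83 to 1.05, G2/M medians of −1.01 to −0.74 and kinesin medians of −1.19 to −0.88, and 90 of the 90 named genes beyond 1 log2 unit kept their sign. The 90 include genes of the score, and all are beyond that size in these same cells. With the groups held fixed, dropping 1 cell left little room for a change of sign. Of the 90 genes, 17 came under 1 log2 unit in size (0.74 to 0.99) without some cell: Tfdp1, E2f3, Cdk2, Skp2, Topbp1, Dck, Dtl, Fezf2, Glul, Spry2, Zfp36l1, Bicd2, H2ax, Xist, Sass6, Cep120 and Cep152. No paired analysis was possible because each group is 1 sample and the titles pair no cells between groups.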
